A study of Mus musculus with 2 samples.

Results

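Binding of the transcription factor Myb was described at 7 genes that encode RUNX factors and their partners in Lin- bone marrow cells of WT mice. The genes were Runx1, Runx2, Runx3, Cbfb, Runx1t1, Cbfa2t2 and Cbfa2t3. A peak was taken as a member when its summit lay in the body of 1 of these genes or within 50 kb of it in the GENCODE vM21 annotation of mm10. By this rule 76 of the 25793 peaks in the Myb list were members, and they fell at 6 of the 7 genes, with no peak at Runx1t1. No peak was counted for more than 1 gene.

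RUNX factors are transcription factors that bind DNA through the Runt domain and become stable binders in complex with CBFβ, the product of Cbfb, which itself does not contact DNA. Runx1 is needed for the formation of definitive hematopoietic stem cells, Runx2 is best known for bone formation, and Runx3 for T cell and neuronal development. The ETO family, made up of the products of Runx1t1, Cbfa2t2 and Cbfa2t3, are corepressors that do not bind DNA by themselves and recruit NCoR and histone deacetylases, and ETO proteins are known as partners of Tal1, E proteins and RUNX1 in blood cells. Runx1t1 and Cbfa2t3 are both known in acute leukemia as fusion partners of RUNX1.

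The series held 2 ChIP-Seq libraries, 1 with an antibody to Myb and 1 with normal rabbit IgG, and both were made from Lin- cells of mice of WT genotype. Lin- cells are bone marrow cells depleted of mature lineages and hold a mixture of stem and progenitor cells. Per the labels, the cells had a purity above 80%, and each precipitation took 1 μg of chromatin and 1.5 μg of antibody. The study used the Myb peaks to find Myb target genes in normal progenitors. The study's methods place all mice on a C57BL/6 background, include both sexes, and use WT for Ep300 fl/fl mice without Cre that received poly(I:C), but whether the mice of this experiment were such mice, their age and their number were not given in the sources used here. With 1 library per antibody there was no replicate, so no difference between genes could be tested, and every value below describes this library alone. IgG served as the background of the peak calls and gave no values of its own.

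Fold enrichment is the height of the Myb pileup at the summit divided by the local IgG background, with 1 added to each. At the low backgrounds of this list it is therefore smaller than the plain ratio. Read numbers are those piled up at the summit, recovered from the fold enrichment and the p-value, and they are given with exact Poisson 95% intervals. These intervals, and the exact binomial (Clopper-Pearson) 95% intervals of shares, cover counting error only. They hold no variation between libraries, and neighboring peaks are not independent. Over the whole list the median summit held 18 reads, so most single peaks rested on few reads.

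The sequence under the summit is shown for the strongest peak of each gene with peaks, so that its motif content can be read directly. The second highest peaks of Runx1 and Cbfa2t3 are shown too. Each window is 101 bases of mm10 on the plus strand with the summit at its center. Capitals mark a Myb motif, searched as CAACTG or TAACTG and as the same with G in place of the last T, or a RUNX motif, searched as TGTGGT or TGCGGT, on either strand, so CAGTTG is a Myb motif and ACCACA or ACCGCA a RUNX motif read from the minus strand. A window in lower case throughout held neither motif.
Runx1, between its promoters, chr16:92715615-92715715: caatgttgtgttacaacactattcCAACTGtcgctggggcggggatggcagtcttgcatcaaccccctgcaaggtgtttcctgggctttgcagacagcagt
Runx1, 24.0 kb after its distal start site, chr16:92801738-92801838: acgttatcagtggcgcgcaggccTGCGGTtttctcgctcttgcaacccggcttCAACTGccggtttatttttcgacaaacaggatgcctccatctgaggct
Runx2, intron, chr17:44672361-44672461: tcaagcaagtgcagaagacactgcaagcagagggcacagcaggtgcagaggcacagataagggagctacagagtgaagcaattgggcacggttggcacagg
Runx3, downstream of the gene, chr4:135206430-135206530: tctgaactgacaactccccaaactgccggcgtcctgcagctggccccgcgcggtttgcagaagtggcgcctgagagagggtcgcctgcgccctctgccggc
Cbfb window, in an exon of the neighbor Tradd, chr8:105259874-105259974: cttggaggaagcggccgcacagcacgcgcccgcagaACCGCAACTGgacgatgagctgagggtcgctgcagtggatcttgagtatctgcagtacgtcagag
Cbfa2t2, first intron, chr2:154463990-154464090: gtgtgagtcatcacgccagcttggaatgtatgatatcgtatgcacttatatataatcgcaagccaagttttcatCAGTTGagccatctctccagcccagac
Cbfa2t3, upstream of the gene, chr8:122720060-122720160: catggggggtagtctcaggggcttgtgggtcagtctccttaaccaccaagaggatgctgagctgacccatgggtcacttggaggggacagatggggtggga
Cbfa2t3, upstream of the distal promoter, chr8:122700846-122700946: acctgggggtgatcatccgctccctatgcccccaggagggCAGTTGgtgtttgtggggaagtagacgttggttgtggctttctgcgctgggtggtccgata

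Of these 8 windows, 5 held a Myb motif and 2 also a RUNX motif. Over all peaks 16.7% held a Myb motif and 12.2% a RUNX motif, but the 8 windows were picked and measure no share. Peaks not shown, with fold enrichments of 11.2 at Runx1 and of 14.7 and 11.4 at Cbfa2t3, held neither motif. In the second Runx1 window the Myb motif lay 3 bp and the RUNX motif 22 bp from the summit, counted to the nearest base of the motif. In the Cbfb window the motifs shared bases, with the minus-strand RUNX motif running into the plus-strand Myb motif as ACCGCAACTG. The highest peak of the set, upstream of Cbfa2t3, and the highest peaks of Runx2 and Runx3 had neither motif within 50 bp of the summit, which says only that these letters were not in these windows.

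Promoter sequences are shown for 4 genes whose most upstream promoter had a Myb peak and held a Myb or RUNX motif. They were taken from the RefSeq promoter table (GRCm38.p6), are printed on the strand of the gene, and stop before the first base that GENCODE annotates as transcribed. Capitals mark the same motifs. No Myb summit lay inside any of these 4 stretches, so the capitals do not mark motifs at a summit. At Cbfa2t3 the nearest summit was 1787 bp from the start site.
Runx1 distal promoter, minus strand, chr16:92826150-92826324: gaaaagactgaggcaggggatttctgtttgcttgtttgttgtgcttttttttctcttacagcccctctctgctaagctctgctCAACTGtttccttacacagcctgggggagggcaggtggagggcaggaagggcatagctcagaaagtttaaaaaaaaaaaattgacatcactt
Runx3 distal promoter, plus strand, chr4:135120395-135120644: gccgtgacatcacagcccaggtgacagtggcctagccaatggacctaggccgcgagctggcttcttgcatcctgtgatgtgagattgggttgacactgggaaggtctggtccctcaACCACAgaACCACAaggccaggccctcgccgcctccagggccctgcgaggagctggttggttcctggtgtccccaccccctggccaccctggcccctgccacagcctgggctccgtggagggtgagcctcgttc
Cbfa2t2 promoter, plus strand, chr2:154436234-154436480: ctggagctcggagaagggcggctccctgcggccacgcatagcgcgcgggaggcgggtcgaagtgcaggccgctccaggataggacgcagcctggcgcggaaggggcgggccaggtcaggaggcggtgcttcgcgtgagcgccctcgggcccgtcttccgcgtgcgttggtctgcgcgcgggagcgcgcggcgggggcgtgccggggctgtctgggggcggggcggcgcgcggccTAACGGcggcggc
Cbfa2t3 distal promoter, minus strand, chr8:122699110-122699359: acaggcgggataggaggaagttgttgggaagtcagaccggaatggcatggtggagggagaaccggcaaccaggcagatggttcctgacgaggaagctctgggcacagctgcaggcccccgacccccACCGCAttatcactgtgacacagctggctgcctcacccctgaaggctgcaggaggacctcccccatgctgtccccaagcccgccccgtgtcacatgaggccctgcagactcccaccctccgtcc

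The table had 9 promoters for the 6 genes with peaks. In the 250 bases before the RefSeq start site, the distal promoter of Runx1 held 2 Myb motifs, 1 of them past the printed stretch, and no RUNX motif. The distal promoter of Runx3 held 2 RUNX motifs close together and no Myb motif. The Cbfa2t2 promoter held 1 Myb motif and the distal promoter of Cbfa2t3 held 1 RUNX motif. Neither motif was found in these bases at the proximal promoters of Runx1 and Runx3, at the second promoter of Cbfa2t3 or at Cbfb. The distal promoter of Runx2, which had no peak, held 1 RUNX motif. Over all 32851 RefSeq promoters of this length, 23.7% held a Myb motif and 18.6% a RUNX motif, so such matches are common. Promoter peaks also had motifs outside these bases. A RUNX motif lay 11 bp from the summit nearest the distal promoter of Runx1. Another lay 4 bp from the summit of a peak at the second promoter of Cbfa2t3. At Cbfa2t2 a Myb motif lay 42 bp from the summit nearest its first promoter. The promoters also differed in base composition, with a GC content of 45.6% at the distal promoter of Runx1 and 67.6% at its proximal promoter, against 78.4% at Cbfa2t2 and 83.2% at the second promoter of Cbfa2t3.

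The 7 genes held between 0 and 21 peaks each. Cbfa2t3 had 21, Runx1 18, Runx2 13, Cbfa2t2 10, Runx3 8, Cbfb 6 and Runx1t1 0, so Runx1 and Cbfa2t3 together carried 39 of the 76. At least 1 summit in the window was found for 6 of the 7 genes, against 68.7% of 21938 protein-coding genes counted in the same way. The median protein-coding gene had 2 peaks in its window, with quartiles of 0 and 5. At least as many peaks as at Cbfa2t3 were found at 95 protein-coding genes (0.433%), and at least as many as at Runx1 at 239 (1.09%). For the others these shares were 3.40% for Runx2, 7.62% for Cbfa2t2, 12.7% for Runx3 and 21.8% for Cbfb.

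The genes differ in length, from 47.3 kb for Cbfb to 318.8 kb for Runx2, so a longer window gives more room for peaks. Per 100 kb of window, Cbfa2t3 had 12.1 peaks, Runx1 5.54, Runx3 5.08, Cbfa2t2 4.93, Cbfb 4.07 and Runx2 3.10, where the median protein-coding gene had 1.52. The density of Cbfa2t3 was the highest of the 7 and was reached by 1.84% of protein-coding genes. Its lead rested largely on weaker peaks, since with only the peaks at a −log10 q-value of 5 or more it had 5.75 per 100 kb, Runx1 4.31 and Runx3 3.81. Runx1, reached by 14.2%, was close to Runx3 (16.2%) and Cbfa2t2 (16.9%), and the order among these 3 rests on few peaks.

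**Figure D1:**
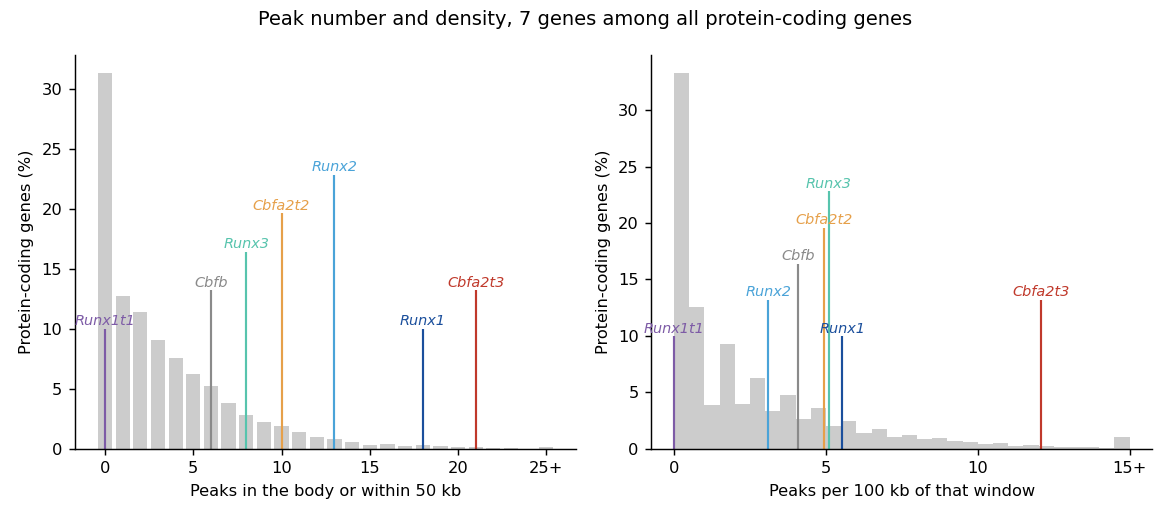
The left panel plots the percentage of protein-coding genes (y axis) by the number of Myb peaks in the gene body or within 50 kb (x axis), and the right panel the same by peaks per 100 kb of that window, with colored lines at the values of the 7 genes, whose heights carry no meaning. Cbfa2t3 with 21 and Runx1 with 18 peaks lie in the upper tail on the left, while on the right only Cbfa2t3, at 12.1 per 100 kb, lies far from the other 6.

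Of the 76 summits, 48 lay in a gene body, 11 upstream and 17 downstream, and in the longest protein-coding transcript of each gene 46 were intronic and 2 exonic. Of the 76, 16 (21.1%, 95% interval 12.5–31.9) were within 3 kb of an annotated start site of the gene itself. The start site nearest to the summit was that of the gene in 42 cases and of another annotated gene in 34, and 13 of those 34 were within 3 kb of that other start site. The number of summits farther than 3 kb from any annotated start site was 48. The same shares over all peaks were not counted, so these positions are not known to differ from those of the whole list.

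Start sites less than 1 kb apart were joined, which gave 21 promoters for the 7 genes. A summit lay within 3 kb of 10 of the 21, where 24.0% of 48610 such promoters of protein-coding genes had one. Counted by gene, 6 of the 7 had a Myb peak at a promoter of their own, against 39.9% of protein-coding genes. The exception was Runx1t1. The 11 promoters without a peak were all 5 of Runx1t1, 4 internal start sites of Cbfa2t2, 1 internal start site of Cbfa2t3 and the distal promoter of Runx2.

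**Figure D2:**
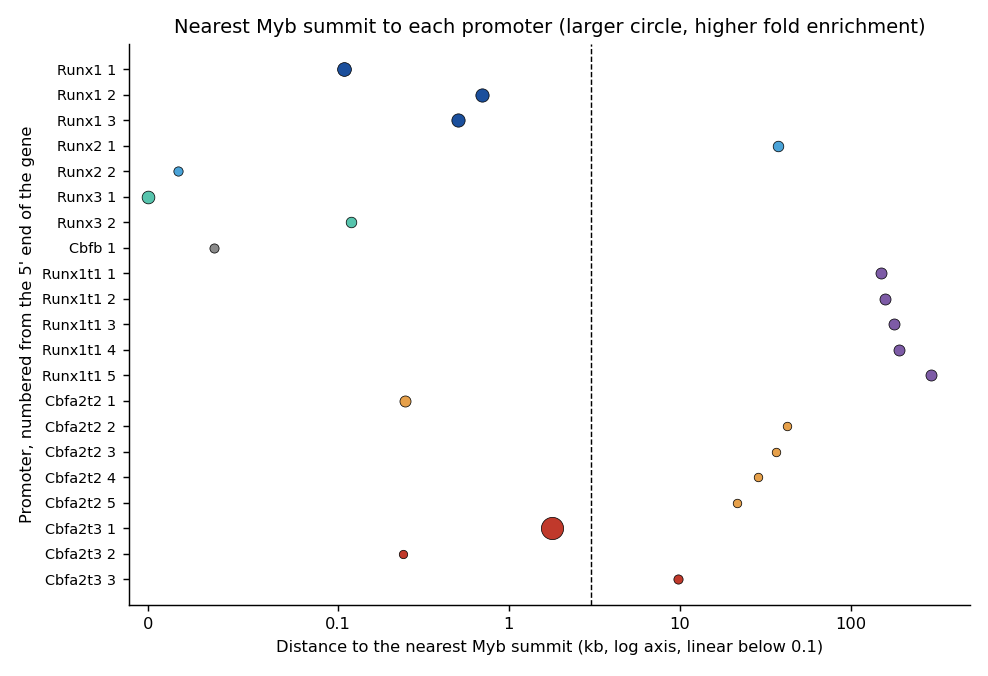
Distance from each of the 21 promoters, numbered from the 5′ end of its gene (y axis), to the nearest Myb summit in kb (x axis, logarithmic above 0.1 kb and linear below), with the dashed line at 3 kb and circles that grow with the fold enrichment of that nearest peak. Of the 10 promoters left of the line, 9 lie within 1 kb of a summit and the distal promoter of Cbfa2t3 at 1.79 kb, and the 11 to its right lie between 9.76 and 295.7 kb away.

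Runx1 (ENSMUSG00000022952.17, chr16:92601466-92826149, minus strand) encodes the DNA-binding subunit that acts in blood stem cells. Its 18 peaks had fold enrichments from 2.94 to 20.2 with a median of 7.07, the highest median of the 6 genes with peaks, and widths from 246 to 2971 bp with a median of 838 bp. The lowest of these peaks had a q-value of 0.065. Both promoter regions were occupied. At the distal promoter the nearest summit was 109 bp from a start site, in a peak of 2856 bp with a fold enrichment of 9.26 and 37 reads (26.1–51.0), and a second peak with 27 reads lay at 2201 bp. At the proximal promoter, which has 2 nearby groups of start sites, 1 peak of 2971 bp with a fold enrichment of 8.71 and 29 reads (19.4–41.6) served both groups, at 697 and 503 bp.

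Most of the signal at Runx1 lay between these promoters, which are 128.8 kb apart in an interval known to hold hematopoietic enhancers. It contained 13 of the 18 summits, 11 of them more than 3 kb from either promoter, while 2 summits lay more than 3 kb after the proximal promoter. The 3 highest peaks of the gene were all in this interval and at least 1916 bp wide. The first (chr16:92714766-92716681), 18.3 kb upstream of the proximal start sites, held 130 reads (108.6–154.4), the most of any peak in the list, although 38 peaks had a higher fold enrichment than its 20.2. Its Myb motif is in capitals in the first summit window. The second (chr16:92800168-92802626), 24.0 kb downstream of the distal start site, held 100 reads (81.4–121.6) at a fold enrichment of 15.6, and its window had a Myb and a RUNX motif. The third (chr16:92820764-92822937), 3.41 kb from the distal promoter, held 57 reads (43.2–73.9) at a fold enrichment of 11.2 and had neither motif. The read intervals of the first and the third do not overlap. After the proximal promoter a stretch of 71.1 kb had no summit, and the only peak beyond it, with 40 reads, was 8.50 kb from the start site of Gm26626.

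Runx2 (ENSMUSG00000039153.16, chr17:44495987-44814797, minus strand), the RUNX factor of bone, had 13 peaks, all in introns of its longest protein-coding transcript and none in the flanks. The summit window of 1 of them, at the proximal promoter, overlapped an annotated Runx2 exon. Fold enrichments ranged from 2.20 to 9.39 with a median of 4.97, below the median of Runx1, and widths from 259 to 1854 bp with a median of 621 bp. The lowest of these peaks had a q-value of 0.406. The promoters of Runx2 behaved differently from one another. No summit was found near the distal promoter, for which the nearest was 37.3 kb away, 203 bp from a start site of Supt3. The proximal promoter had a summit 16 bp from a start site, in the widest peak of the gene (1854 bp), with 21 reads (13 to 32.1) and a fold enrichment of 4.29. In contrast to Runx1, 1 summit lay between the promoters, an interval of 78.1 kb, and 11 lay more than 3 kb after the proximal one.

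The highest peak of Runx2 (chr17:44672020-44672962) lay in intron 5, 62.3 kb after the proximal promoter, with 49 reads (36.3–64.8) and a fold enrichment of 9.39. The next had fold enrichments of 7.56 with 38 reads and 5.94 with 26 reads and lay 80.0 and 120.4 kb after that promoter. The 3′ end of the gene, a stretch of 118.3 kb, had no summit. Only 1 of the 13 peaks had a Runx2 start site as its nearest. For 7 it was n-R5s27, a small RNA gene inside Runx2, for 4 the antisense gene Runx2os2 and for 1 Supt3, so a nearest-start rule gives these peaks to other genes.

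Runx3 (ENSMUSG00000070691.10, chr4:135120652-135177990, plus strand), the RUNX factor of T cells, had 8 peaks with fold enrichments from 3.24 to 13.3, a median of 5.34 and a median width of 764.5 bp. Both promoters carried a peak. The summit at the distal promoter lay on the annotated start site itself, in a peak of 746 bp with 26 reads (17.0–38.1) and a fold enrichment of 8.08, and the sequence just before it is the one with 2 RUNX motifs shown above. The proximal promoter had a summit at 120 bp, with 21 reads (13 to 32.1) and a fold enrichment of 5.72. The 31.7 kb between these summits were free of peaks.

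The other 6 peaks of Runx3 all lay past the 3′ end of the gene, from 0.976 to 28.5 kb, and Runx3 was the gene with the nearest start site for each of them. Of these, the farthest was also the highest and widest (chr4:135205365-135206950, 1586 bp), with 68 reads (52.8–86.2) and a fold enrichment of 13.3. Another with 32 reads (21.9–45.2) and a fold enrichment of 8.41 lay 25.5 kb past the gene end, and a peak with 24 reads lay between them, so that 3 peaks fell within 3.75 kb. No summit was found in the 50 kb upstream of Runx3, and the next one upstream was at 50.7 kb, just outside the window.

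Cbfb (ENSMUSG00000031885.14, chr8:105170674-105217989, plus strand), which encodes the non-DNA-binding partner of all RUNX factors, had the lowest signal of the 6 genes with peaks. Its 6 peaks had fold enrichments from 2.75 to 6.43 with a median of 4.41, 12 to 25 reads and a median width of 438 bp. At its promoter there were 2 peaks, with summits 35 and 117 bp from annotated start sites. The first had 12 reads (6.20–21.0) and a fold enrichment of 4.15. The second had 13 reads (6.92–22.2) and a fold enrichment of 2.75, and its q-value was 0.065. The rest of the gene body, 46.3 kb, had no summit.

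The 4 other peaks in the Cbfb window were 36.5 to 47.3 kb past the end of the gene, each at the promoter of a neighbor. These were B3gnt9 (684 bp), Tradd (196 and 488 bp) and Fbxl8 (596 bp). The highest peak counted for Cbfb (chr8:105259501-105260267, 25 reads, 16.2–36.9) was the one at Tradd, an adaptor of TNF receptor signaling. Within the gene and its own promoter, therefore, Cbfb had the 2 low peaks alone.

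Runx1t1 (chr4:13743436-13893649, plus strand), which encodes ETO, the corepressor fused to RUNX1 in leukemia, was the member with no peak. None of its 5 annotated promoters had a summit nearer than 149.9 kb. The nearest summits were 149.9 kb upstream and 933.0 kb downstream of the gene, which makes a stretch of 1233 kb with no summit around it, and this stretch holds 4 protein-coding genes that lie wholly inside it. Among 25772 gaps between neighboring summits on the same chromosome, 391 (1.52%) were as long, and the median gap was 13 kb. Of all protein-coding genes, 6858 had no peak in the window either. The list gives only peaks that passed the caller, so weaker signal at Runx1t1 could not be assessed, and neither could the mappability of the stretch.

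Cbfa2t2 (chr2:154436481-154539356, plus strand), an ETO-family corepressor expressed in many tissues, had 10 peaks of even and modest height. Fold enrichments ranged from 3.43 to 7.28 with a median of 5.17, and widths from 258 to 993 bp with a median of 547.5 bp. Its first promoter had 3 peaks within 1 kb. The nearest summit, at 247 bp, was in the widest peak of the gene (993 bp), with 20 reads (12.2–30.9) and a fold enrichment of 6.26, and the others lay 535 bp upstream and 962 bp downstream with 16 and 14 reads. Its 4 internal start sites had no summit within 21.6 kb.

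The remaining peaks of Cbfa2t2 fell in the first intron or downstream. The highest (chr2:154463874-154464174), 27.2 kb after the first promoter, was only 301 bp wide, with 22 reads (13.8–33.3) and a fold enrichment of 7.28. Past it the gene had no summit for 75.3 kb. The 3 downstream peaks had the start sites of Actl10 (854 bp) and E2f1 (496 and 4602 bp) as their nearest, and the one 4602 bp from E2f1, a cell cycle transcription factor, held 34 reads, the most in the window. With 4 of its 10 summits beside a Myb motif, Cbfa2t2 had the highest share of the 7 genes, but the 95% interval of 12.2–73.8% spans the share of every other gene with peaks except Runx2.

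Cbfa2t3 (chr8:122625141-122699109, minus strand) encodes ETO2, the ETO-family corepressor found in Tal1 complexes of blood progenitors. It had 21 peaks, 9 in the body, 8 upstream and 4 downstream, and the widest range of signal, with fold enrichments from 2.22 to 21.3 and widths from 225 to 6178 bp. The medians, 4.96 and 395 bp, were low for the set, so a few strong peaks stood among many weak, narrow ones. The highest peak of the 76 by fold enrichment (chr8:122719430-122721233) lay 21.0 kb upstream of the distal start site, with 82 reads (65.2–101.8), a width of 1804 bp and a fold enrichment of 21.3 that 24 peaks in the list exceeded. The annotated start site nearest to it was that of C230057M02Rik, 18.4 kb away. A Cbfa2t3 start site was the nearest for 9 of the 21 peaks.

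The second highest peak of Cbfa2t3 (chr8:122697215-122703392) was the widest of the 76 at 6178 bp and covered the distal promoter. Its summit lay 1787 bp upstream of the start site, with 122 reads (101.3–145.7) and a fold enrichment of 18.6, and only 1 peak in the list, the Runx1 peak with 130 reads, held more reads. By width 18 peaks in the list were larger. The Myb motif in its summit window was 5 bp from the summit. The third (chr8:122664823-122666194) lay in intron 1, 12.6 kb after the second promoter, with 75 reads (59.0–94.0) and a fold enrichment of 14.7, and was followed closely by a peak with 51 reads and a fold enrichment of 11.4.

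At the second promoter of Cbfa2t3 the signal was low. The 3 peaks there, at 239, 254 and 1015 bp, had 12 (6.20–21.0), 18 (10.7–28.4) and 16 (9.15–26.0) reads and fold enrichments of 3.29, 4.84 and 2.22. The peak at 1015 bp had a q-value of 0.302. None of these read intervals reaches that of the wide peak upstream of the distal start site. A second peak at the distal promoter, 2773 bp downstream of a start site, was as low, with 19 reads (11.4–29.7) and a fold enrichment of 4.25, and its interval overlaps all 3. The annotated start site nearest to this second peak was that of Gm10612, at 1731 bp. The third start site of Cbfa2t3, which has no protein-coding transcript, was 9.76 kb from the nearest summit. From just inside the distal promoter to 37.4 kb upstream of it, 9 peaks followed each other at distances of at most 10 kb. They spanned 40.7 kb, covered 12.4 kb of it and held 360 summit reads in all, the largest of the 13 such groups of at least 3 peaks at these genes. Those of them 19.9 kb or more upstream had the start site of C230057M02Rik as their nearest.

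**Figure D3:**
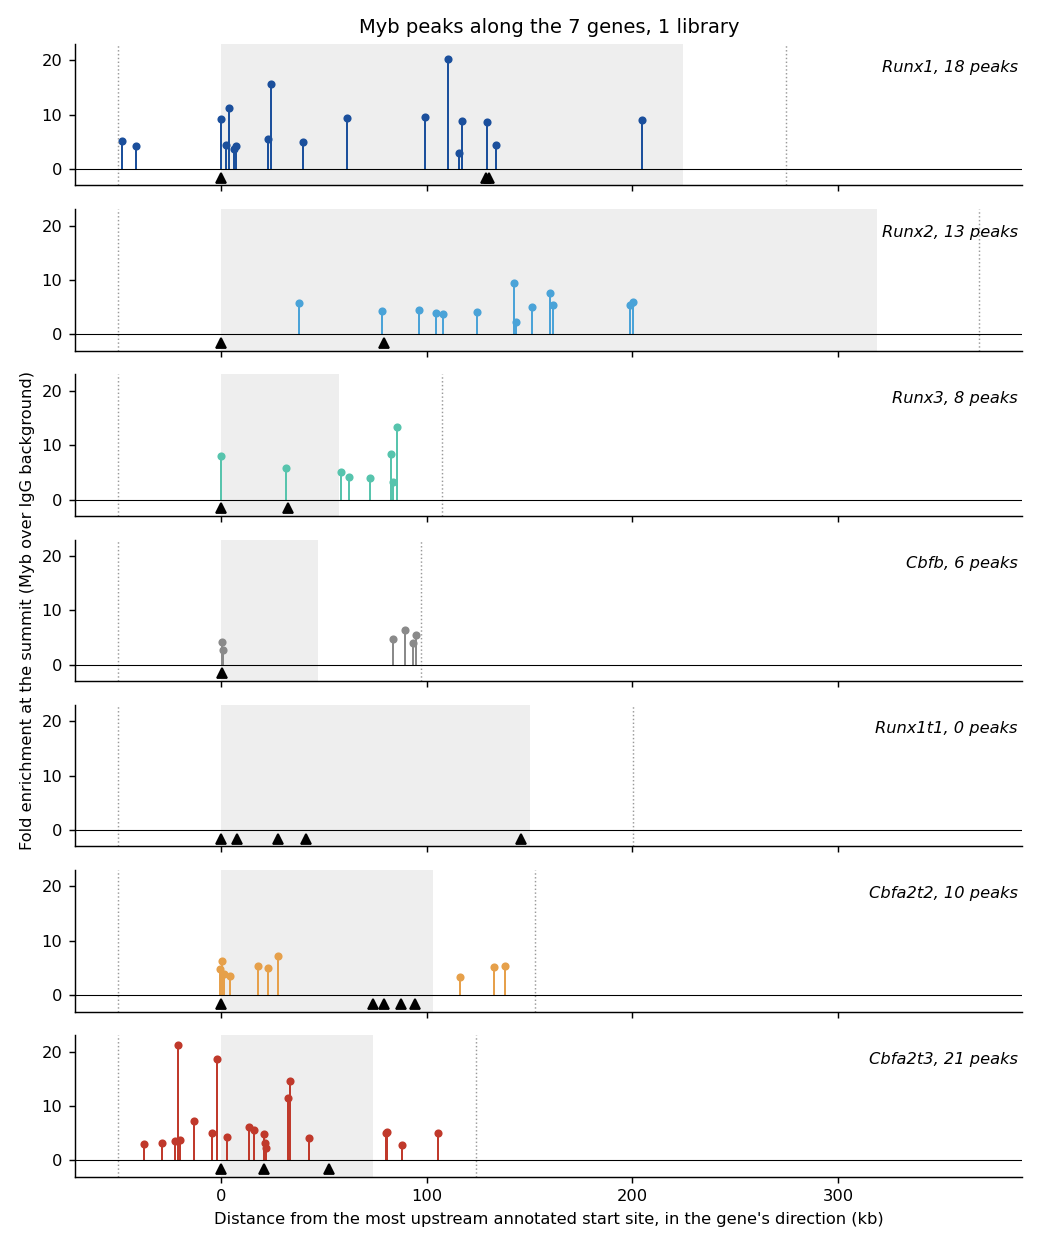
Fold enrichment at the summit (y axis) of each of the 76 Myb peaks against its distance in kb from the most upstream annotated start site in the direction of the gene (x axis), with 1 panel per gene on common scales, the gene body shaded, promoters as triangles and the limits of the 50 kb flanks dotted. Runx1 peaks fill the 128.8 kb between its promoters, 6 of the 8 Runx3 peaks lie past the gene end, the tallest Cbfa2t3 peaks lie upstream of and inside the gene, and the Runx1t1 panel is empty.

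Width and height were set side by side over the 76 peaks. Their median width was 660 bp (95% order-statistic interval 472–768), and the median over all 25793 peaks was 577 bp. Median fold enrichment was 5.05 (4.48–5.46) against 4.51, and the median summit held 21 reads (18–24) against 18. For width and fold enrichment the whole-list medians lie inside these intervals, and for reads at the lower end. High and broad peaks were counted too. A fold enrichment of at least 10 was found in 8 of the 76 (10.5%, 4.66–19.7), against 4.47% of all peaks, and a width over 2 kb in 5 (6.58%, 2.17–14.7), against 3.36%, which lies inside that interval. A q-value above 0.05 was listed for 4 of the 76 (5.26%, 1.45–12.9), against 7.24%. Peaks of 1 gene neighbor each other, so these intervals are too narrow, and the lower limit for high peaks is itself close to the share of all peaks.

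The 8 high peaks came from 3 genes, with 4 at Cbfa2t3, 3 at Runx1 and 1 at Runx3. The broad ones came from Runx1, with 4, and Cbfa2t3, with 1. Only 1 of the 8 high peaks lay at a promoter of its gene, the one upstream of the distal start site of Cbfa2t3. The 16 promoter peaks had a median fold enrichment of 4.60 and a median width of 739.5 bp, and the 60 others 5.10 and 621.5 bp. High peaks were wide, with a median of 1860 bp against 577.5 bp for the rest. Across the 76 peaks, which share a library and a caller and are not independent, Spearman's rho of width and fold enrichment was 0.578, and across all peaks it was 0.517.

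**Figure D4:**
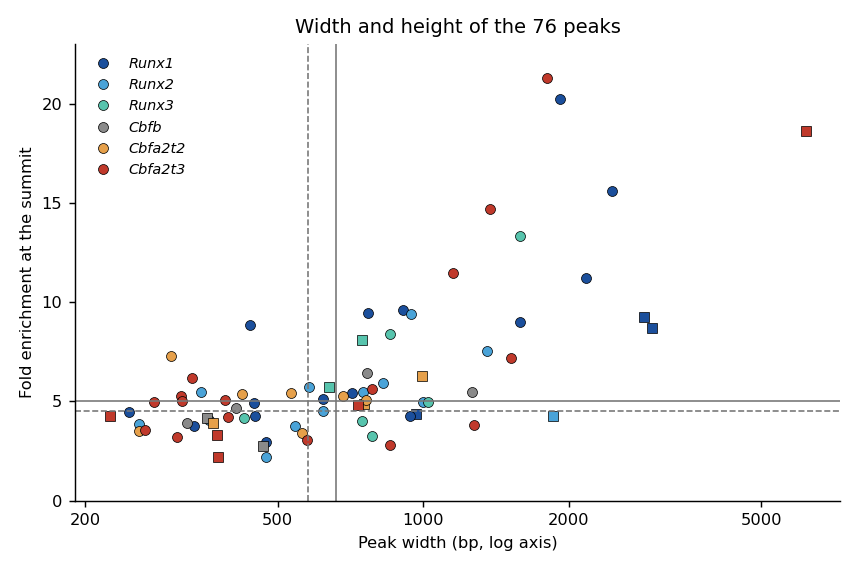
Fold enrichment at the summit (y axis) against peak width in bp (logarithmic x axis) for the 76 peaks, colored by gene, with squares for peaks within 3 kb of a start site of the gene, solid lines at the medians of the 76 peaks (660 bp and 5.05) and dashed lines at those of all peaks (577 bp and 4.51). All 8 peaks above a fold enrichment of 10 are at least 1154 bp wide, and only the widest of them, at 6178 bp, is a square.

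Motifs were counted within 50 bp of each summit. A Myb motif lay at 17 of these 76 summits (22.4%, 13.6–33.4), against 16.7% of all peaks, and in 8.55% of windows of the same size 500 bp to either side of the 76. The interval holds the share of all peaks and lies above that of the flanks, which has a counting error of its own that is not given here. Of the 17 motifs 12 were CAACTG, while 3 were TAACTG, 1 was CAACGG and 1 was TAACGG, and their median distance from the summit was 20 bp. By gene there were 4 at Runx1, 4 at Cbfa2t2, 4 at Cbfa2t3, 2 at Runx3, 2 at Cbfb and 1 at Runx2.

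A RUNX motif lay at 7 of the 76 summits (9.21%, 3.78–18.1), against 12.2% of all peaks and 7.89% of the flanking windows of the 76. The interval holds both shares. There were 2 at Runx1, 2 at Cbfa2t3 and 1 each at Runx2, Runx3 and Cbfb, and none of 10 at Cbfa2t2 (exact upper limit 30.8%). Both motifs were found at 631 of all 25793 peaks and at 3 of the 76, 1 each at Runx1, Cbfb and Cbfa2t3. Neither was found at 18970 of all peaks and at 55 of the 76. An ETS motif, GGAAGT, was found at 4 (5.26%, 1.45–12.9), against 10.5% of all peaks, and a GATA motif, AGATAA or TGATAA, at 15 (19.7%, 11.5–30.5), against 13.8%. For GATA the flanks of the 76 had 8.55%, below the interval, and 10 of the 15 were at Runx1 and Cbfa2t3. Over all peaks the flank shares were 10.5% for Myb, 8.31% for RUNX, 6.10% for ETS and 8.79% for GATA, each below the summit share of the whole list, so a higher share at summits than in flanks was not particular to these genes. None of these searches shows which protein was bound.

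**Figure D5:**
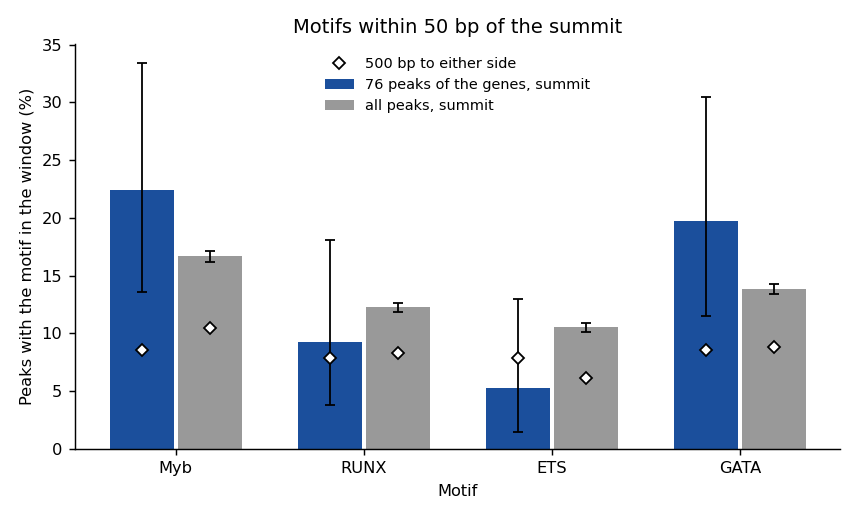
Percentage of peaks with each motif within 50 bp of the summit (y axis) for the 76 peaks of the genes (blue) and all 25793 peaks (gray), with exact binomial 95% intervals as error bars and diamonds for windows 500 bp to either side. For Myb (22.4% against 8.55%) and GATA (19.7% against 8.55%) the error bars of the 76 peaks lie above their diamonds, and for RUNX and ETS they include them. The diamonds are estimates from the same peaks and are drawn without intervals, so the differences were not tested.

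Other genes of the pathway were counted in the same windows from a list of 31 taken from textbook partners. The list was drawn up with earlier results of these data known, so its counts are a description and no independent evidence. All 31 had a peak in the window and 28 had one at a promoter of their own, against 68.7% and 39.9% of protein-coding genes, with a median of 7 peaks and 4.50 per 100 kb. The median of the 7 genes was 10 peaks and 4.93 per 100 kb. The complex around Tal1 and the ETO proteins had a promoter peak at 8 of 8 genes and a median of 10 peaks. Coactivators and modifiers had one at 7 of 7 with a median of 6, DNA-binding partners at 4 of 5 with a median of 6, and corepressors at 9 of 11 with a median of 4. The highest numbers were 34 at Cdk6, a cell cycle kinase, and 20 each at Lyl1 and Erg, both transcription factors of blood progenitors. The lowest were 1 at Hdac2 and 2 each at Hdac1 and Tle4, which encode corepressors. Only Lyl1 (19.4 per 100 kb), Lmo2 (12.9) and Gata2 (12.4), all of the Tal1 complex, were as dense as Cbfa2t3.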

How the data were processed

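ChIP-Seq of Myb and of IgG was done on Lin- bone marrow cells of WT mice, with 14 sonication cycles, tagmentation on the beads, 12 PCR cycles and single-end sequencing, 1 library each. Per the labels and the study's methods, the authors trimmed reads (Cutadapt 1.15), aligned them to mm10 (BWA 0.7.13), removed duplicates (Picard), applied mapping quality and blacklist filters, called narrow peaks against IgG (MACS2 2.1.1.20160309), and kept those found again in pseudo-replicates, which are random parts of 1 library's reads. The methods state a q-value below 0.05 for these calls, but 7.24% of the listed peaks had a higher one. The deposited list gives fold enrichment as a ratio, −log10 p- and q-values, and a score, which was not used.

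Summits were placed on GENCODE vM21, using the mm10 coordinates of the file, counted from 1. All start sites of a gene were used, joined when under 1 kb apart, and a promoter peak had its summit within 3 kb of one. Exon and intron numbers are those of the longest protein-coding transcript. Reads at a summit were recovered with a Myb pileup scale of 0.769, which gave whole reads in 100% of rows (tolerance 0.01 read). In 2.00% of rows, among them 2 of the 76 peaks, more than 1 number was possible and the closest was taken. Total depth is not in the list. Sequence came from GRCm38.p6 and RefSeq promoters, and windows 500 bp to either side served as motif flanks. The recovery and the motif search were tested on simulated data. Scripts used Python 3.11.15, numpy 2.4.6, pandas 2.3.3 and scipy 1.17.1.

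Samples were grouped by title. No test was possible with 1 library per antibody. The q-values of single peaks were used as filters and description, and their p-values to recover the reads. A peak list holds no expression values, so the cell type was not checked against marker genes. Genes named are the 7 members, with their 3 highest, widest and promoter peaks and the peak with the most reads, the neighbors whose start sites were nearest, and up to 6 of 31 pathway genes with the highest and lowest counts. Peaks named beyond this rule, genes named for density and the ETS and GATA motifs were chosen after values were seen. The members and lists were chosen with earlier results of these data known. Alternatives covered the flank, the q-value, the promoter window, the assignment of peaks and the form and window of the motifs.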

Additional observations from a re-analysis of the deposited data

How the results depend on the processing

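The count of 76 peaks became 48 with gene bodies alone, 45 at a −log10 q-value of 5 or more and 42 when each peak went to the gene of the nearest start site. The median fold enrichment rose to 6.16 at that q-value, since low peaks are left out. The share at an own promoter was 11.8% with a window of 500 bp. The Myb motif share was 67.1% for AACNG (54.3% of all peaks), 44.7% for CAACNG or TAACNG (29.7%), 11.8% within 25 bp (8.68%) and 36.8% within 100 bp (30.0%), and the RUNX motif share was 22.4% within 100 bp (23.5%). Of 56 counts of single genes under these settings, 40 stayed within 1.5 times. Cbfa2t3 had the highest density and Runx1t1 no peak under each flank and q-value tried, but Runx1 had more peaks than Cbfa2t3 with bodies alone, with 10 kb flanks, by nearest start site, and at −log10 q of 5 or more (14 against 10). At that q-value 4 of the 7 genes kept an own promoter peak. The share of all protein-coding genes was not counted at that q-value, so this number cannot be called high or low. No paired analysis was possible because there was 1 library per antibody. A peak with the median of 18 reads is known only within wide counting limits, and the absence of a peak is no measure of the signal there.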

Other observations

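Several peaks in these windows lay at promoters of neighboring genes and are values of those genes as much as of the 7. Besides B3gnt9, Tradd, Fbxl8, Actl10, E2f1 and Supt3, named in the report, a peak with 17 reads and a fold enrichment of 2.82 lay 158 bp from a start site of Galns, and a peak with 12 reads and a fold enrichment of 3.85 lay 221 bp from a start site of Runx2os2. In the Cbfa2t3 window, summits also lay 838 and 1844 bp from a start site of Gm15899, 1731 bp from Gm10612 and 2034 bp from C230057M02Rik. Of 28 peaks in the flanks, the farthest from a gene end was at 48.2 kb, upstream of Runx1, and the nearest left out was at 50.7 kb, upstream of Runx3, with fold enrichments of 5.11 and 6.89. The pair of adjacent peaks in intron 1 of Cbfa2t3 and the group of 3 downstream of Runx3 lie close together, and whether each peak is a separate bound element was not tested.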
